A study of Mus musculus with 37 samples.

Results

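The metalloproteinases that inflamed tissue is known to produce were followed across colitis in mice with and without Timp1, the gene of tissue inhibitor of metalloproteinases 1. These 7 genes, Mmp3, Mmp7, Mmp8, Mmp9, Mmp10, Mmp12 and Mmp13, were chosen by name and not by a threshold on their values, out of 19938 genes measured. The choice was made with earlier results of these data known, as was that of the gene lists below. Counts set beside the shares over all genes are therefore a description. RNA of snap frozen colon from 37 mice was hybridised to Affymetrix Mouse Gene 1.0 ST arrays, with 1 array per mouse. Wild-type mice were C57BL/6J, and knockout mice carried the B6.129S4-Timp1tm1Pds/J allele, which removes Timp1 from every cell and not from a chosen cell type. Dextran sodium sulphate (DSS), taken by mouth, served to induce colitis, and the labels separate an acute from a chronic phase. In the acute phase there were 3 controls and 5 DSS mice of the wild type and 3 controls and 6 DSS mice of the knockout, and each of the 4 chronic groups held 5 mice. Ages, DSS doses and durations were not given in the sources used here.

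Matrix metalloproteinases are zinc-dependent endopeptidases, most of them secreted as inactive proenzymes, that cut collagens, elastin, proteoglycans, cytokines and one another. Their genes are mostly quiet in healthy gut, and cytokines such as interleukin 1 and tumour necrosis factor induce several of them in stromal cells, epithelium and macrophages, while neutrophils store some of the finished enzymes in granules. TIMP1 is a secreted protein that binds the active site of most of them and blocks it.

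Of the 7 genes, 6 lie together on chromosome 9. In RefSeq's gene order for mouse (GRCm38.p6) the stretch from the first to the last of them holds 10 protein-coding genes, in the order Mmp13, Mmp12, Mmp1b, Mmp3, Mmp1a, Mmp10, Mmp8, Mmp27, Mmp20 and Mmp7. Mmp9 lies on chromosome 2. RefSeq promoter sequence (GRCm38.p6) was matched for 6 of the 7, in 8 entries because Mmp7 and Mmp12 have 2 starts each. The 120 bases before the start are shown, 5′ to 3′ on the + strand of chromosome 9, because letters known as the binding sequence of the transcription factor AP-1 (TGANTCA, searched on both strands) recur in them. Capitals mark each match.

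Mmp3 (chr9:7445702-7445821): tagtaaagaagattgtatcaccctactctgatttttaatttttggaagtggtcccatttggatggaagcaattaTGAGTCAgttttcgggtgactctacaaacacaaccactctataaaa
Mmp10 (chr9:7502222-7502341): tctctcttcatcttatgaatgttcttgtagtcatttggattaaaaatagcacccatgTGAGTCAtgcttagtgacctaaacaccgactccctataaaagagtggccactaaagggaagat
Mmp13 (chr9:7272394-7272513): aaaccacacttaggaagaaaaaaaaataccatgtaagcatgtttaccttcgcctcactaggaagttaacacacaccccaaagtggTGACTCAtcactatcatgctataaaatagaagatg
Mmp8 (chr9:7558309-7558428): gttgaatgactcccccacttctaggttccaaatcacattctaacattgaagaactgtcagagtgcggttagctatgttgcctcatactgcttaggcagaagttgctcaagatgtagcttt
Mmp7, first start (chr9:7691970-7692089): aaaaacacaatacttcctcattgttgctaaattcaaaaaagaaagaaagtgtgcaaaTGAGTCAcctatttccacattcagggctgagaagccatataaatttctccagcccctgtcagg
Mmp12, first start (chr9:7344277-7344396): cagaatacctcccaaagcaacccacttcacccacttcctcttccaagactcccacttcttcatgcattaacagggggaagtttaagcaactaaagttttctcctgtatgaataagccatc
Mmp12, second start (chr9:7347254-7347373): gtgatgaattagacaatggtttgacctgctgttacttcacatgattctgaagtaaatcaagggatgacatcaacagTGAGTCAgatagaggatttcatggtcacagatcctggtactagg

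The AP-1 letters occurred within 120 bases of a start in 5 of the 8 entries and 5 of the 6 genes. The match began 46 bases before the start of Mmp3, 63 before that of Mmp10, 35 before that of Mmp13, 63 before the first start of Mmp7 and 44 before the second start of Mmp12. No match lay in the Mmp8 window. Of all 32851 promoters in the table, 3.41% held these letters in the same window. The letters AGGAAG, known from ETS factor binding and also searched on both strands, occurred in 3 of the 8 entries against 16.3% of all promoters. The letters TATAAA on the gene's strand occurred in 4 of the 8 entries, those of Mmp3, Mmp10, Mmp13 and the first start of Mmp7, against 4.19% of all promoters. These counts describe letters, and no binding was measured.

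The values are log2 signals, so a step of 1 is a 2-fold difference, and each gene's level is compared only with its own level in other mice, since probes differ in brightness. Array medians lay between 7.67 and 7.76, and arrays correlated with the rest of their group at a mean of at least 0.967. Timp1, the targeted gene, was between 9.47 and 12.19 in the wild-type acute DSS mice and between 7.10 and 8.68 in the knockout acute DSS mice. It was between 7.56 and 7.76 in wild-type acute controls and between 6.94 and 7.12 in knockout acute controls, but the genotypes overlapped in chronic controls (6.99 to 7.28 wild type, 6.84 to 7.46 knockout) and in chronic DSS mice (7.20 to 9.27 and 6.83 to 7.30), so the ranges separate the genotypes in the acute phase only. Timp1 passed as lower in knockout mice under acute DSS and under chronic DSS (-1.38 ± 0.34, adjusted p = 0.0255, limma), and not in acute controls (-0.62 ± 0.44, adjusted p = 0.608). Where its probes lie relative to the deletion is not given in the sources used here. Of the 13 measured colon epithelial markers, the mean log2 signal was 10.58 to 13.06 in all arrays, lowest in a wild-type acute DSS mouse. The labels give no sex, and 2 knockout arrays, acute control replicate 2 and acute DSS replicate 4, carried Y-linked signal. The animal numbers in the titles fall into 4 series, which may or may not be batches. In the acute phase, series 1 held every wild-type mouse and replicates 1 to 3 of the knockout DSS mice, and series 2 the rest. In the chronic phase, series 3 held the DSS mice and controls 1 to 3 of the wild type, and series 4 held controls 4 and 5 of the wild type and every knockout mouse.

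Acute DSS in wild-type mice raised 6 of the 7 metalloproteinases by 2.25-fold to 17.4-fold, with Mmp7 as the exception (limma, adjusted p under 0.05). Among all genes tested, 19.4% rose. The median difference of the 7 was 3.72 on the log2 scale, beside 0.01 over all genes. In every one of the 5 mice all 7 genes were above every control, a complete separation that 17.7% of all genes showed in that direction.

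The stromelysins have broad substrates and also cut other proenzymes into active form. Mmp3 (stromelysin 1), mostly a product of stromal cells, was 6.44, 6.95 and 6.41 in the wild-type acute controls and 9.84, 11.79, 11.47, 9.28 and 9.24 in the DSS mice. The groups did not overlap, and DSS replicates 2 and 3 were highest. The difference was 3.72 ± 0.68 (SE), or 13.2-fold (adjusted p = 7.20e-05). Mmp10 (stromelysin 2), known from epithelium at wound edges and from macrophages, was 7.22, 7.21 and 6.99 in controls and 11.21, 12.40, 11.86, 10.23 and 9.75 in DSS mice. Again every DSS mouse was higher and replicate 2 was the highest, with a difference of 3.95 ± 0.63 or 15.4-fold (adjusted p = 1.36e-05).

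The collagenases open the triple helix of fibrillar collagen. Mmp13, the main interstitial collagenase of rodents, was 7.06, 7.38 and 7.31 in controls and 11.44, 12.90, 12.49, 10.59 and 9.42 in DSS mice. The lowest DSS mouse stood well above the highest control. Its difference of 4.12 ± 0.71, or 17.4-fold, was the largest of the 7 (adjusted p = 3.28e-05). Mmp8 (neutrophil collagenase), made in maturing neutrophils and kept in their granules, was 5.31, 5.37 and 5.43 in controls and 10.26, 9.37, 10.74, 7.83 and 7.73 in DSS mice. Here replicates 1 and 3 were highest and replicates 4 and 5 stood more than 1 step below the rest. The difference was 3.82 ± 0.61 or 14.1-fold (adjusted p = 1.43e-05).

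Mmp9 (gelatinase B) degrades denatured collagen and type IV collagen and is stored by neutrophils. It was 7.01, 7.06 and 6.79 in controls and 10.09, 9.32, 10.65, 8.75 and 9.37 in DSS mice. As with Mmp8, replicates 3 and 1 led, and the groups did not overlap. The difference was 2.68 ± 0.38 or 6.41-fold (adjusted p = 2.43e-06).

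Mmp12 (macrophage elastase) was 6.97, 6.87 and 7.06 in controls and 7.52, 7.99, 9.95, 7.74 and 7.47 in DSS mice. All DSS mice were higher, but replicate 3 stood almost 2 steps above the next. The difference was 1.17 ± 0.35, or 2.25-fold (adjusted p = 0.00769), and 0.71 without replicate 3, where it still passed (adjusted p = 0.0211). In a fit limited to the arrays of these 2 groups it did not pass (adjusted p = 0.127).

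Mmp7 (matrilysin) is an epithelial enzyme that in the mouse small intestine activates Paneth cell defensins. It was 6.81, 6.84 and 6.80 in controls and 7.18, 7.84, 6.85, 7.37 and 7.59 in DSS mice. The groups did not overlap, yet replicate 3, the mouse with the highest Mmp8, Mmp9 and Mmp12, was nearly at the control level. The difference of 0.55 ± 0.35 did not pass (adjusted p = 0.211), but it passed with array weights (adjusted p = 0.0216).

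**Figure D1:**
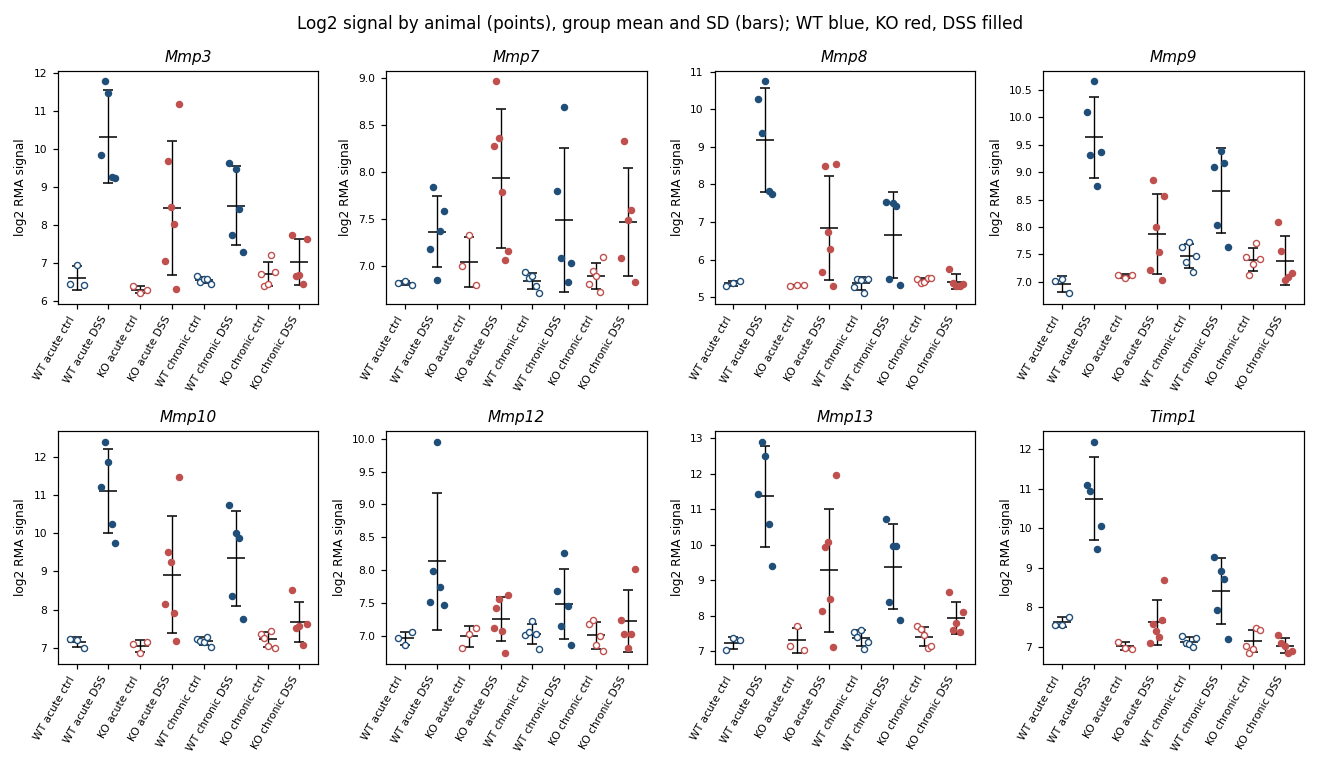
Log2 RMA signal (vertical axes, 1 panel per gene, each on its own scale) of the 7 metalloproteinases and Timp1 in the 8 groups; points are mice, bars the group mean and SD, wild type blue, knockout red, DSS filled and control open. The wild-type acute DSS mean is the highest in all panels but that of Mmp7, and knockout acute DSS mice of Mmp3, Mmp8, Mmp10 and Mmp13 spread from the control level upward; Mmp7 has its highest mean, 7.94, in the knockout acute DSS mice.

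In knockout mice under acute DSS, none of the 7 passed (limma), beside 0.266% of all genes that rose, although 6 had an unadjusted p under 0.05. The median difference was 1.51 on the log2 scale against 0.00 over all genes. Only Mmp10 was separated from its controls in every mouse, as were 2.79% of all genes in that direction. The differences were 2.16 ± 0.66 for Mmp3 (adjusted p = 0.0912), 1.97 ± 0.69 for Mmp13 (adjusted p = 0.139), 1.87 ± 0.61 for Mmp10 (adjusted p = 0.114), 1.51 ± 0.59 for Mmp8 (adjusted p = 0.194), 0.90 ± 0.34 for Mmp7 (adjusted p = 0.172), 0.77 ± 0.37 for Mmp9 (adjusted p = 0.291) and 0.26 ± 0.34 for Mmp12 (adjusted p = 0.746).

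The 6 knockout DSS mice differed widely among themselves. Mmp3 had its lowest value at 6.30, its median at 8.25 and its highest at 11.18, against 6.20 to 6.38 in the 3 controls. Mmp10 had 7.17, 8.69 and 11.48 as its lowest, median and highest, against 6.85 to 7.15 in controls, and Mmp13 had 7.12, 9.21 and 11.96, against 7.05 to 7.72. For all 3 the highest mouse was replicate 6 and the lowest replicate 5. Replicate 6 lay within the range of the wild-type DSS mice in these genes, while replicate 5 exceeded every control in Mmp10 alone. Replicate 6 also had the highest Timp1 signal of the knockout DSS mice, 8.68, above every wild-type acute control (7.56 to 7.76). Mmp8 ran from 5.30 through a median of 6.52 to 8.53 against 5.31 to 5.33 in controls, with replicates 2 and 6 nearly equal at the top. Mmp9 ran from 7.03 through 7.77 to 8.85 against 7.06 to 7.12, and Mmp12 from 6.73 through 7.27 to 7.62 against 6.82 to 7.13. In these neutrophil and macrophage enzymes the lowest mouse was again replicate 5. Without replicate 5, Mmp3 (2.59, adjusted p = 0.0205), Mmp10 (2.22, adjusted p = 0.0352) and Mmp13 (2.41, adjusted p = 0.0372) passed. With array weights, Mmp3, Mmp7, Mmp8, Mmp10 and Mmp13 passed, Mmp7 at an adjusted p of 0.00304.

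Mmp7 ordered the knockout mice differently. Its DSS values were 7.06 at the lowest, 8.03 at the median and 8.97 at the highest, against 6.80, 7.00 and 7.33 in controls. Replicates 1 to 3 (8.28, 8.97 and 8.36), all of series 1, were highest, and replicate 6, the highest in most other members, was 7.16. Within series 2, which holds the 3 controls and DSS replicates 4 to 6, the Mmp7 difference was 0.30 (adjusted p = 0.692), and that of the other members was 2.21 for Mmp3, 1.88 for Mmp13, 1.82 for Mmp10, 1.39 for Mmp8, 0.61 for Mmp9 and 0.15 for Mmp12, none of which passed.

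**Figure D2:**
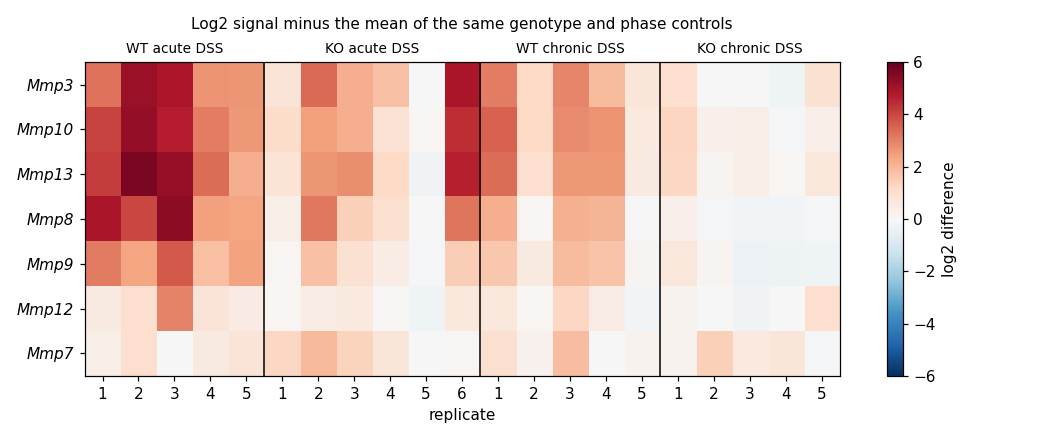
Log2 signal of each DSS mouse (columns, by group and replicate) minus the mean of the controls of the same genotype and phase, for the 7 metalloproteinases (rows); red is above the controls and blue below. All 5 wild-type acute DSS mice are red in the upper rows, knockout acute DSS replicate 5 is near 0 throughout, and the Mmp7 row follows its own order of mice.

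Under acute DSS the genotypes can be set against each other directly. In all, 6 of the 7 metalloproteinases were lower in knockout mice, by 0.88 to 2.35 on the log2 scale, and Mmp7 was not (limma, adjusted p under 0.05). Of all genes tested, 15.2% were lower. The median difference of the 7 was -1.87 beside 0.02 over all genes. No member was separated between the groups in every mouse, as 3.04% of all genes were in that direction, since knockout replicate 6 or replicate 2 reached the wild-type range in each. Mmp8 differed most, by -2.35 ± 0.51 (adjusted p = 7.04e-04), followed by Mmp10 with -2.18 ± 0.52 (adjusted p = 0.00191), Mmp13 with -2.08 ± 0.59 (adjusted p = 0.00684) and Mmp3 with -1.87 ± 0.57 (adjusted p = 0.0114). Mmp9 differed by -1.77 ± 0.31, with the smallest adjusted p of the 7, 8.43e-05, and Mmp12 by -0.88 ± 0.29 (adjusted p = 0.0194). Mmp7 was 0.57 ± 0.29 higher in knockout mice and did not pass (adjusted p = 0.136).

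The genotype difference was also computed within series 1, where 3 knockout and 5 wild-type DSS mice share the series. The values were -2.23 for Mmp8 (adjusted p = 0.116), -2.12 for Mmp10 (0.0535), -1.99 for Mmp13 (0.134), -1.93 for Mmp3 (0.129), -1.61 for Mmp9 (0.0570) and -0.76 for Mmp12 (0.365), so each stayed close to its value over all mice while none passed. Mmp7 was 1.17 ± 0.24 higher in knockout mice there and did pass (adjusted p = 0.0198). The knockout series 1 mice, at 8.28 to 8.97, were all above the wild-type DSS mice, at 6.85 to 7.84. With animal series as a covariate, 5 members were lower, Mmp7 was higher (1.17 ± 0.30, adjusted p = 0.00337) and Mmp12 did not pass (-0.76, adjusted p = 0.103). With array weights, 4 were lower, Mmp7 was higher (0.69 ± 0.25, adjusted p = 0.0430), and Mmp12 (-0.42, adjusted p = 0.170) and Mmp13 (-1.31, adjusted p = 0.0737) did not pass. Without wild-type DSS replicate 3 the Mmp12 difference was -0.42 (adjusted p = 0.137) and Mmp3 no longer passed (-1.59, adjusted p = 0.0502). Without knockout DSS replicate 5, Mmp12 did not pass either (-0.77, adjusted p = 0.0530). When only the 11 arrays of these groups were fitted, Mmp9 alone passed (adjusted p = 0.0252).

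Control mice of the 2 genotypes gave no member that passed in either phase (limma; 0 of 7 at an unadjusted p under 0.05 in both), beside 1.12% of all genes in acute and 0.1% in chronic controls. In the acute controls every knockout Mmp9 value exceeded every wild-type one and every knockout Mmp3 value lay below, as 10.8% and 15% of all genes did in the same directions. The Mmp9 ranges nearly touched, with 7.06 the lowest in knockouts and 7.06 the highest in wild-type mice. Genotype and animal series cannot be told apart in the acute controls, as no series holds both. Differences of the 7 ran from -0.31 to 0.22 in acute and from -0.07 to 0.15 in chronic controls. The fit shares 1 spread per gene over all 8 groups, which includes the more variable DSS mice. For Mmp8 the SE in acute controls was 0.69, while the SDs were 0.06 in wild-type and 0.01 in knockout acute controls. Small differences between controls could therefore hardly pass in this fit. Fitted on the compared arrays alone, 0 of 7 passed in either phase. With animal series as a covariate, the Mmp7 difference in acute controls was 1.42 instead of 0.22, and did not pass (adjusted p = 0.126). Within series 4, the differences in chronic controls included 0.25 for Mmp13, 0.19 for Mmp3 and 0.14 for Mmp7, and none passed.

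The test of whether DSS acted differently in the 2 genotypes is the interaction, the knockout DSS effect minus the wild-type DSS effect. In the acute phase Mmp9 was the 1 member of 7 that passed, with -1.91 ± 0.53 (limma, adjusted p = 0.0176), and 5.75% of all genes passed in that direction. Mmp8 (-2.31 ± 0.85, adjusted p = 0.0698), Mmp13 (-2.15 ± 0.99, adjusted p = 0.146) and Mmp10 (-2.08 ± 0.88, adjusted p = 0.113) had larger differences with wider errors. Mmp3 had -1.57 ± 0.95, Mmp12 -0.91 ± 0.48 and Mmp7 0.35 ± 0.48. Mmp9 did not pass without wild-type acute control replicate 3 (-1.83, adjusted p = 0.0507), without wild-type DSS replicates 1 and 3 together (-1.42, adjusted p = 0.0841) or in a fit on these 4 groups alone (adjusted p = 0.0774). Without knockout DSS replicate 6, Mmp8, Mmp10 and Mmp13 passed as well (-2.65, -2.59 and -2.68), and Mmp8 also passed without knockout DSS replicate 2 or wild-type DSS replicate 4 or 5.

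**Figure D3:**
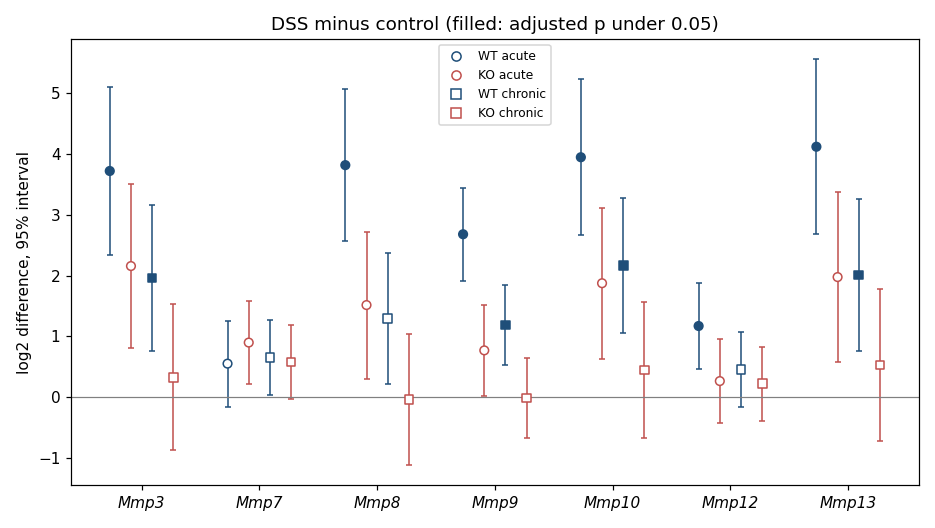
DSS minus control difference in log2 signal (vertical axis) for each metalloproteinase (horizontal axis) in wild-type (blue) and knockout (red) mice, acute (circles) and chronic (squares); bars are 95% confidence intervals of the limma fit and filled symbols passed an adjusted p of 0.05. Filled symbols are wild type only, 6 acute and 4 chronic, and Mmp7 has none. Whether the genotypes differ is tested by the interaction, which Mmp9 alone passed in the acute phase and no member passed in the chronic phase.

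Chronic DSS in wild-type mice raised 4 of the 7, Mmp3, Mmp9, Mmp10 and Mmp13 (limma, adjusted p under 0.05), beside 5.79% of all genes. The median difference was 1.29 against 0.00 over all genes. Mmp3, Mmp10 and Mmp13 were separated from the controls in every mouse, as 6.23% of all genes were. Mmp3 was 9.63, 7.72, 9.47, 8.43 and 7.29 in DSS mice against 6.44 to 6.65 in controls, a difference of 1.96 ± 0.59 (adjusted p = 0.0231). Mmp10 was 10.73, 8.35, 10.01, 9.87 and 7.74 against 7.02 to 7.30, a difference of 2.17 ± 0.55 (adjusted p = 0.00673). Mmp13 was 10.72, 8.38, 9.97, 9.96 and 7.89 against 7.07 to 7.60, a difference of 2.01 ± 0.61 (adjusted p = 0.0249). In all 3 genes replicates 2 and 5 were the lowest DSS mice and still above every control.

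The neutrophil enzymes put the same mice apart. Mmp8 was 7.53, 7.52 and 7.41 in replicates 1, 3 and 4 but 5.49 and 5.33 in replicates 2 and 5, against 5.11 to 5.49 in controls. Replicate 5 lay among the controls, and replicate 2 was level with the highest of them. The Mmp8 difference of 1.29 ± 0.53 did not pass (adjusted p = 0.104). Mmp9 was 9.10, 8.03, 9.38, 9.17 and 7.63 against 7.18 to 7.73, and rose by 1.19 ± 0.33 (adjusted p = 0.0127). For Mmp9 only replicate 5 lay within the control range. Mmp12 (0.46 ± 0.30, adjusted p = 0.363) and Mmp7 (0.65 ± 0.30, adjusted p = 0.159) did not pass, and replicate 3 was the highest in both, at 8.26 and 8.70. Array weights gave Mmp7 a call here as well (adjusted p = 0.0442).

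Within series 3 the wild-type chronic differences were 1.93 for Mmp3 (adjusted p = 0.0263) and 2.15 for Mmp10 (0.0343), which passed, and 1.87 for Mmp13 (0.0501) and 1.09 for Mmp9 (0.0790), which did not. With animal series as a covariate over all mice, Mmp10 alone passed (2.15, adjusted p = 0.0247), and Mmp3 (0.0648), Mmp9 (0.0568) and Mmp13 (0.0858) lost their calls. Without DSS replicate 3 only Mmp10 passed, as Mmp3 (1.72, adjusted p = 0.0756), Mmp9 (1.01, adjusted p = 0.0535) and Mmp13 (1.86, adjusted p = 0.0660) were lost. Mmp3 (1.68, adjusted p = 0.0743) and Mmp13 (1.68, adjusted p = 0.0840) were lost without DSS replicate 1, and Mmp13 also without replicate 4 (1.86, adjusted p = 0.0593). Mmp8 passed without replicate 5 (1.62, adjusted p = 0.0458).

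In knockout mice chronic DSS moved none of the 7 past the threshold (limma; 0 at an unadjusted p under 0.05), beside 2.47% of all genes that rose. The differences ran from -0.04 for Mmp8 to 0.57 for Mmp7, with a median of 0.32 against -0.04 over all genes. Mmp8 was 5.75, 5.37, 5.29, 5.31 and 5.36 in DSS mice against 5.39 to 5.51 in controls. Replicate 1 was above every control and the other 4 were below every control, so no rise like that of the wild-type replicates 1, 3 and 4 was seen in any of the 5. Mmp9 was 8.10, 7.55, 7.04, 7.08 and 7.16 against 7.13 to 7.70, and replicate 1 again was the only mouse above the controls. Mmp10 was 8.52, 7.51, 7.58, 7.09 and 7.63 against 7.00 to 7.44, where 4 of 5 mice exceeded the controls (0.44 ± 0.55, adjusted p = 0.676). Replicate 1 was the highest mouse for Mmp3 (7.72), Mmp8, Mmp9, Mmp10 and Mmp13 (8.66), whereas Mmp12 was highest in replicate 5 (8.02) and Mmp7 in replicate 2 (8.33).

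Knockout minus wild type under chronic DSS, Mmp9 was the 1 member of 7 that passed, lower by 1.28 on the log2 scale (-1.28 ± 0.33; limma, adjusted p = 0.0302), beside 1.3% of all genes, and 5 members had an unadjusted p under 0.05. Mmp10 (-1.67 ± 0.55, adjusted p = 0.0907), Mmp3 (-1.48 ± 0.59, adjusted p = 0.176), Mmp13 (-1.44 ± 0.61, adjusted p = 0.208) and Mmp8 (-1.24 ± 0.53, adjusted p = 0.213) had differences of like size and did not pass. Mmp12 differed by -0.26 and Mmp7 by -0.02. These groups lie wholly in different animal series, so genotype and series cannot be told apart within them. With series as a covariate, estimated from the wild-type controls of both series, Mmp9 did not pass. Its call was also lost without wild-type DSS replicate 1, 3 or 4 or knockout DSS replicate 3, 4 or 5, with differences of -1.10 to -1.22 (adjusted p from 0.0793 to 0.139), while Mmp10 passed without wild-type DSS replicate 5 (-2.07, adjusted p = 0.0319). The chronic interaction passed for no member (limma; 2 of 7 at an unadjusted p under 0.05), beside 0.421% of all genes in either direction, with differences of -1.72 for Mmp10 to -0.08 for Mmp7.

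The chronic DSS effect was smaller than the acute one in wild-type mice for Mmp8 (-2.53 ± 0.81, adjusted p = 0.0304) and Mmp9 (-1.49 ± 0.50, adjusted p = 0.0368), 2 of the 7 members (limma), while 7.71% of all genes passed in that direction. Mmp13 (-2.11 ± 0.94, adjusted p = 0.115), Mmp10 (-1.78 ± 0.84, adjusted p = 0.136), Mmp3 (-1.76 ± 0.90, adjusted p = 0.176) and Mmp12 (-0.71 ± 0.46, adjusted p = 0.293) did not pass, and Mmp7 had 0.10 ± 0.46. The calls were fragile. Mmp8 and Mmp9 were both lost without any 1 of wild-type acute control replicates 1, 2 and 3, acute DSS replicates 1 and 3, and chronic DSS replicates 2 and 5, and Mmp9 also without chronic control replicate 1 or 3, with differences of -2.14 to -2.56 for Mmp8 and -1.24 to -1.54 for Mmp9. Phase and animal series cannot be told apart here, as acute and chronic mice share no series. In knockout mice no member passed this test (limma; 1 of 7 at an unadjusted p under 0.05), beside 0.01% of all genes in either direction.

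Over the 8 groups, the wild-type acute DSS mean was the highest for every member but Mmp7. For Mmp3, Mmp10 and Mmp13 the order below it was the same, wild-type chronic DSS (8.51, 9.34 and 9.38), knockout acute DSS (8.45, 8.91 and 9.28) and knockout chronic DSS (7.02, 7.67 and 7.94). For Mmp8 the knockout acute DSS mean (6.83) stood above the wild-type chronic one (6.66), and knockout chronic DSS (5.42) lay among the controls. For Mmp7 the means ran from 7.37 in wild-type acute DSS through 7.47 in knockout chronic DSS and 7.49 in wild-type chronic DSS to 7.94 in knockout acute DSS. The ranges of neighbouring groups overlapped at each of these steps.

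The members were also set against each other mouse by mouse, as deviations from the mean of the own group, so that the group differences do not enter. Differences between animal series remain in the knockout acute DSS mice and the wild-type chronic controls, which each hold mice of 2 series. Over 37 mice, Pearson r was 0.93 between Mmp3 and Mmp10, 0.91 between Mmp3 and Mmp13, 0.96 between Mmp10 and Mmp13 and 0.90 between Mmp8 and Mmp9. Mmp12 followed the other 5 less closely, with r from 0.54 to 0.60. Mmp7 had r from 0.01 to 0.20 with the other 6, and from 0.13 to 0.37 over the 32 mice outside wild-type acute DSS. Both values of a pair come from the same RNA and array.

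**Figure D4:**
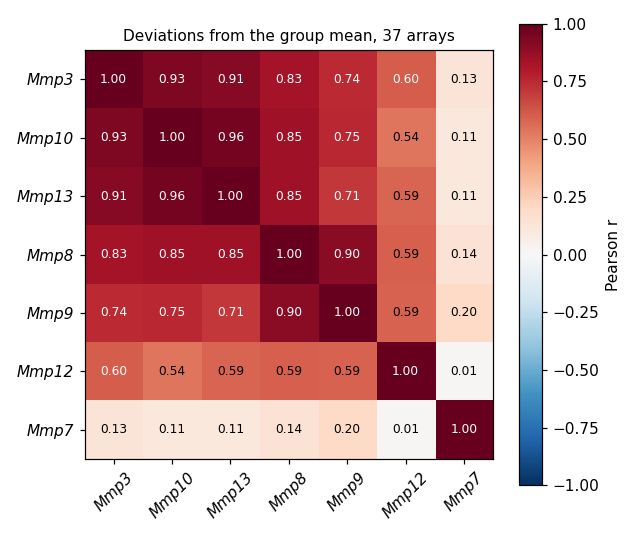
Pearson r between each pair of the 7 metalloproteinases (rows and columns), from deviations of log2 signal from the group mean over 37 mice; red is positive and the number in each cell is r. Mmp3, Mmp10 and Mmp13 form the block of highest r, Mmp8 and Mmp9 a pair at 0.90, and the Mmp7 row is pale, at 0.01 to 0.20.

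By the same measure over 37 mice, the genes outside the 7 most like each member were as follows. Cemip, a hyaluronan-binding protein gene, came first for Mmp3 (r = 0.96), Mmp10 (0.95) and Mmp13 (0.92). Lcn2, which encodes lipocalin 2, was among the first 3 for all of them (0.91, 0.91 and 0.89), with the cytokine gene Il11 for Mmp3 (0.92), the haptoglobin gene Hp for Mmp10 (0.91) and the activin subunit gene Inhba for Mmp13 (0.90). Mmp8 was most like Retnlg (0.96), Ifitm6 (0.96) and S100a8 (0.94), and Mmp9 most like the chemokine receptor gene Cxcr2 (0.94), S100a8 (0.94) and the chemokine gene Cxcl5 (0.94). Mmp12 was most like Adssl1 (0.87), Cd80 (0.85) and Cd300c2 (0.85), and Mmp7 most like Myot (0.77), Zdhhc3 (0.76) and Prss27 (0.75). Without the wild-type acute DSS mice Cemip still had r of 0.96, 0.94 and 0.92 with Mmp3, Mmp10 and Mmp13 over 32 mice, whereas Adssl1 stood at place 60 for Mmp12 (0.73).

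Markers of cells that make these enzymes moved in the same comparisons. For every list below, the shares over all genes to read its counts against are 19.4% higher and 21.8% lower in wild-type acute DSS, and 15.8% higher and 15.2% lower in knockout against wild-type acute DSS mice. In bulk tissue, fewer cells of a type and less RNA per cell cannot be told apart. Of 13 measured neutrophil markers, 9 rose in wild-type acute DSS and 7 were lower in knockout than in wild-type DSS mice. Their mean log2 signal per mouse was 7.16 to 7.17 in wild-type acute controls, 8.68 to 10.20 in wild-type acute DSS mice, 7.10 to 7.17 in knockout acute controls and 7.25 to 9.14 in knockout acute DSS mice. Retnlg, for example, rose by 4.21 ± 0.49 in wild-type acute DSS (adjusted p = 1.34e-07) and was lower by 1.99 in knockout DSS mice (-1.99 ± 0.40, adjusted p = 3.65e-04). In the chronic phase the neutrophil mean was 7.44 to 9.08 in wild-type DSS mice and 6.93 to 7.92 in knockout DSS mice, and 8 and 0 of the 13 rose, beside 5.79% and 2.47% of all genes. The mean of this list had r of 0.93 with Mmp9 and 0.92 with Mmp8 by deviations from the group mean (37 mice). With Mmp10, Mmp13, Mmp3, Mmp12 and Mmp7 it had 0.84, 0.81, 0.79, 0.65 and 0.29. The part of this list in the metalloproteinase differences was not tested.

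Of 15 macrophage markers, 11 rose in wild-type acute DSS and 11 were lower in knockout DSS mice, with a mean log2 signal of 9.14 to 10.37 in wild-type DSS mice, 8.10 to 9.31 in knockout DSS mice and 8.33 to 8.82 in acute controls of both genotypes. Itgam rose by 2.04 ± 0.37 (adjusted p = 5.98e-05) and Msr1, a scavenger receptor gene, by 1.94 ± 0.35 (adjusted p = 6.03e-05). The mean of the macrophage markers had r of 0.78 with Mmp12 and was about as close to Mmp9 (0.78) and Mmp8 (0.75). With Mmp3, Mmp13, Mmp10 and Mmp7 it had 0.71, 0.70, 0.63 and 0.17. Of 13 fibroblast markers, 11 rose in wild-type acute DSS and 11 were lower in knockout DSS mice, among them Col1a1 (1.69 ± 0.25 and -1.19 ± 0.21). Their mean had r of 0.82 with Mmp8, 0.79 with Mmp9, 0.77 with Mmp3, 0.74 with Mmp13 and 0.72 with Mmp10. With Mmp12 and Mmp7 it had 0.58 and -0.02. Over the 32 mice outside wild-type acute DSS, r was 0.91, 0.90 and 0.85 with Mmp3, Mmp13 and Mmp10. The neutrophil mean had 0.81, 0.83 and 0.86 there. Of 7 endothelial markers, 5 rose in wild-type acute DSS and 7 were lower in knockout DSS mice. Colon epithelial markers went the other way. Of 13 measured, 9 fell in wild-type acute DSS, Aqp8, a water channel gene, by 2.57 (-2.57 ± 0.69, adjusted p = 0.00371), and 6 were higher in knockout DSS mice. Their mean log2 signal was 12.94 to 13.00 in wild-type acute controls and 10.58 to 12.82 in wild-type DSS mice. It had r of -0.71 with Mmp12 over 37 mice, with a rank correlation (Spearman) of -0.47. Over the 32 mice outside wild-type acute DSS, r was -0.51. With the other members r ran from -0.59 (Mmp8) to 0.15 (Mmp7) over 37 mice. Over the 32 mice it ran from -0.55 (Mmp8) to -0.30 (Mmp7), so the sign for Mmp7 changed. Of 8 smooth muscle markers none passed in wild-type acute DSS, and 4 were lower in knockout DSS mice, Acta2 (-0.25), Tagln (-0.38), Lmod1 (-0.44) and Cnn1 (-0.52, adjusted p = 0.00265). Of 5 measured Paneth cell markers 1, Lyz1, fell in wild-type acute DSS, and 1, Pla2g2a, was higher in knockout DSS mice (1.67 ± 0.56, adjusted p = 0.0228). Lyz1 (0.17), Itln1 (0.13), Defa24 (-0.003) and Ang4 (-0.16) did not pass in that comparison. The mean of the Paneth list had r of 0.10 with Mmp7 over 37 mice. Of 7 small intestinal enterocyte markers 2 rose and 1 fell in wild-type acute DSS. In knockout DSS mice Fabp6 (0.94 ± 0.16, adjusted p = 5.19e-05) and Apob (1.27 ± 0.42, adjusted p = 0.0210) were higher and Apoa4 was lower (-0.28 ± 0.10). The mean of this list was 8.24 to 9.16 in knockout acute controls and 7.56 to 7.84 in wild-type ones. Alpi (2.49), Sis (2.36), Fabp2 (1.81) and Apob (0.65) were higher in every knockout control, as were 10.8% of all genes, and did not pass. Fabp6, Apoa4 and Lct overlapped. These controls are also the baseline of the knockout acute DSS effect. The part of each list in the metalloproteinase values was not tested.

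The inhibitors of the enzymes moved as well. Of 6 measured genes, 4 rose and 1 fell in wild-type acute DSS. Timp1 rose by 3.12 ± 0.39 (8.72-fold, adjusted p = 5.32e-07) and Timp2 by 0.84 ± 0.18 (adjusted p = 3.25e-04), and Timp4 fell by 1.13 (-1.13 ± 0.29, adjusted p = 0.00233). In knockout against wild-type DSS mice 4 of the 6 were lower, Timp1 itself (-3.14 ± 0.33), Timp2 by 1.36 (-1.36 ± 0.15, adjusted p = 2.11e-07), and the Timp3 and Reck genes. No inhibitor of this list passed as higher in the knockout DSS mice.

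Among 15 other measured metalloproteinase genes, 9 rose in wild-type acute DSS and 7 were lower in knockout DSS mice, beside 19.4% and 15.2% of all genes, with medians of 0.31 and -0.28 beside 0.01 and 0.02. Mmp19 rose by 1.85 ± 0.36 (adjusted p = 1.26e-04), Mmp2 (gelatinase A) by 1.52 ± 0.28 (adjusted p = 6.56e-05) and Mmp14, a membrane-anchored enzyme that activates pro-MMP2, by 1.29 ± 0.18 (adjusted p = 1.57e-06). Unlike the 7, Mmp2 and Mmp14 were lower in every knockout DSS mouse than in any wild-type one (-1.81 ± 0.23 and -0.99 ± 0.15). Their neighbours on chromosome 9, Mmp1a, Mmp1b and Mmp20, did not pass in wild-type acute DSS, and Mmp27 rose by 0.32 (adjusted p = 0.00767).

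Of 14 genes of proteases and receptors that help to activate the proenzymes, Mmp2 and Mmp14 among them, 7 rose in wild-type acute DSS and 6 were lower in knockout DSS mice. Plau, the urokinase gene, rose by 1.62 ± 0.33 (adjusted p = 2.72e-04) and was lower by 1.76 in knockout mice (-1.76 ± 0.28, adjusted p = 2.08e-05). Its receptor gene Plaur rose by 1.60 ± 0.26 (adjusted p = 1.87e-05).

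Of 14 measured cytokine and receptor genes known to induce metalloproteinases, 9 rose in wild-type acute DSS, 1 rose in knockout acute DSS (0.266% of all genes), and 6 were lower and 1 higher in knockout than in wild-type DSS mice. Il1b rose by 3.55 ± 0.59 in wild-type mice (adjusted p = 2.31e-05) and by 2.43 in knockout mice (adjusted p = 0.0307), and its genotype difference under DSS did not pass (-1.18 ± 0.49, adjusted p = 0.0669). Il1a (-1.58 ± 0.54, adjusted p = 0.0236) and Il11 (-1.44 ± 0.31, adjusted p = 5.87e-04) were lower in knockout DSS mice, and Ifng was the gene that was higher (0.64, adjusted p = 0.0102). Of 18 measured genes of the AP-1, NF-kappa B, ETS and related factors, 7 rose and 3 fell in wild-type acute DSS, beside 19.4% and 21.8% of all genes. Cebpb rose by 1.19 ± 0.21 (adjusted p = 3.62e-05) and Ets1 by 1.16 ± 0.26 (adjusted p = 7.01e-04), while Atf3, an AP-1 family partner, fell by 1.28 (-1.28 ± 0.20, adjusted p = 1.12e-05).

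The substrates of the enzymes rose together with them. All 13 measured matrix genes rose in wild-type acute DSS and all 13 were lower in knockout DSS mice, with medians of 1.47 and -1.14 beside 0.01 and 0.02 over all genes. Vcan, which encodes the proteoglycan versican, rose by 1.98 ± 0.41 (adjusted p = 3.01e-04), and the basement membrane collagen genes Col4a1 and Col4a2 by 1.78 ± 0.24 and 1.75 ± 0.24 (adjusted p = 1.22e-06 and 1.36e-06). In wild-type chronic DSS 2 of the 13 rose, beside 5.79% of all genes.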

How the data were processed

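The authors deposited log2 signals per transcript cluster, made with RMA (robust multi-array average) per the submitters' processing notes. The base of the logarithm was read as 2 from the usual RMA output and from values of 3.03 to 14.96. Of 35511 clusters, 21789 had 1 gene symbol in the probe annotation, 1621 had several and 12101 were not listed. For 999 genes with several clusters the brightest was kept, which left 19938 genes. Each of the 7 metalloproteinases had 1 cluster.

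A linear model gave each of the 8 groups a mean over the 37 arrays (limma 3.58.1, R 4.3.3; residual degrees of freedom 29, prior 3.18). Tests of 12 comparisons were two-sided, with Benjamini-Hochberg adjustment over all 19938 genes and a threshold of 0.05. That gave 84 tests of members. SEs are those of the fit. Replicates were taken as separate mice, since each title carries its own animal number, and the number of arrays limits the precision. Knockout and wild-type comparisons share DSS or control mice, so their differences are not independent. Members and lists were chosen with earlier results of these data known. Named genes were the 7, Timp1, the 3 genes most like each member, and up to 3 genes per list with the largest difference in wild-type acute DSS among those that passed. Exceptions, chosen after their values were seen, were Timp3, Reck, Ifng, Pla2g2a, Itln1, Defa24, Ang4, Apob, Sis, Fabp2, 4 smooth muscle markers and the chromosome 9 neighbours. A mean log2 signal of a list is over its measured genes.

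The fit was tested on simulated data with 200 changed genes. For wild-type acute DSS it recovered 73.1%, 92.5% and 97% of log2 changes of 0.5, 1 and 2 (5.41% of calls false), and for the genotype difference under acute DSS 77.6%, 97% and 98.5% (7.14% false). In the data 19.4% of genes rose and 21.8% fell in wild-type acute DSS, a far larger share than was simulated. The rates therefore need not hold for the members, which varied widely among DSS mice. Mmp3, for example, differed by 2.16 in knockout acute DSS and did not pass. Alternatives were another prior, cyclic loess, median centring, array weights, filters, other cluster rules, sex or animal series as covariates, fits within a series or on the compared groups alone, and leaving out each array. A fit without the 2 Y-linked arrays, or without wild-type acute DSS replicates 1 and 3 together, was chosen after seeing the data. Figures were drawn with matplotlib 3.10.9.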

Additional observations from a re-analysis of the deposited data

Results flagged for a closer look

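In 42 sets of a member and a group of 4 to 10 mice, 2 held a mouse far from the others by Dixon's criterion, and chance flags about 1 in 20 groups. Mmp12 was 9.95 in wild-type acute DSS replicate 3, while the next mouse was at 7.99 and the lowest at 7.47. Mmp8 was 5.75 in knockout chronic DSS replicate 1, while the next was at 5.37 and the lowest at 5.29.

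Effects that differed between groups were found for 2 members. The acute DSS effect on Mmp9 was smaller in knockout than in wild-type mice (-1.91, adjusted p = 0.0176, limma interaction). In wild-type mice the chronic effect was smaller than the acute one for Mmp8 (-2.53, adjusted p = 0.0304) and Mmp9 (-1.49, adjusted p = 0.0368).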

How the results depend on the processing

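Of 919 recomputed differences of the 7 members under alternatives other than leaving out 1 array, 867 kept their direction and side of the threshold, 34 lost and 18 gained the call, and none reversed. Of 1036 with 1 array left out, 992 kept both, 32 lost and 12 gained the call, and none reversed. Among those counted as kept, 23 and 32 differences that passed in neither fit changed sign. The genotype difference under acute DSS, with 6 members lower in the main analysis, had 5 lower with animal series as a covariate and 4 lower with array weights. In both fits 1 more member, Mmp7, passed as higher, and Mmp12 (with array weights also Mmp13) lost its call. Array weights also gave 7 for wild-type acute DSS (6 in the main analysis) and 6 for wild-type chronic DSS (4), with Mmp7 among them in both. Counts of members that passed moved by more than 1.5 times in the cases that follow, and their cause was not tested. Some of these fits had fewer arrays, and those on the compared groups alone took the spread from those groups only. For Mmp3 the SDs were 1.22 and 1.77 in wild-type and knockout acute DSS mice, and 0.31 and 0.09 in their controls. With array weights, the count was 5 for knockout acute DSS (0 in the main analysis), 3 for the chronic interaction (0), 5 for the genotype difference under chronic DSS (1) and 1 for the chronic against the acute effect in wild type (2). With only the groups compared, it was 1 for the genotype difference under acute DSS (6), and 0 for the same comparison under chronic DSS (1), the acute interaction (1) and the chronic against the acute effect in wild type (2). With animal series as a covariate, it was 1 for wild-type chronic DSS (4) and 0 for the genotype difference under chronic DSS (1). Within series 3 wild-type chronic DSS gave 2, and within series 1 the genotype difference under acute DSS gave 1, Mmp7. Without wild-type acute DSS replicates 1 and 3 together, the counts were 2 for the genotype difference under acute DSS (Mmp9 and Mmp10), 0 for the acute interaction and 0 for the chronic against the acute effect in wild type. That last count was 1 without the dimmest 33.33% of genes, where Mmp8 has no value, and 1 with cyclic loess. With 1 array left out, counts ranged from 6 to 6 for wild-type acute DSS, 0 to 3 for knockout acute DSS, 1 to 5 for wild-type chronic DSS, 0 to 0 for knockout chronic DSS, 4 to 6 and 0 to 2 for the genotype difference under acute and chronic DSS, 0 to 0 in both sets of controls, 0 to 4 and 0 to 0 for the acute and chronic interactions, and 0 to 3 and 0 to 0 for the chronic against the acute effect in wild-type and knockout mice. No paired analysis was possible because each animal number occurs once and pairs no mice across groups.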
